A study of Pan troglodytes with 38 samples.

Results

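Hearts of chimpanzees noted as positive for hepatitis B virus (HBV) or hepatitis C virus (HCV) were compared with hearts that carried no virus note, within a single RNA extraction. The study measured heart RNA of chimpanzees and humans to compare how much expression varies between individuals, and the virus notes come from its sample table. Of the 38 chimpanzees of the series, the 20 compared here had RNA extracted in 2018, 7 with a virus note and 13 without one. The 17 animals with RNA extracted in an earlier year were kept out of the comparison, as was 4X0357, an animal of 2018 noted as exposed to HIV with negative tests. Each animal gave 1 library of polyadenylated RNA from postmortem heart, so the animal was the replicate, and some animals of the series are related.

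The virus-positive animals were 4X0095 and 4X0339 with HBV, 4X0212, 4X0267, 4X0354 and 4X0550 with HCV, and 4X0333 with both viruses. They were 4 females and 3 males, aged between 21 and 49 years, and all 7 came from the primate centre SNPRC. The other animals were 7 females and 6 males, aged between 15 and 57 years where an age was given (9 animals), with 12 from Yerkes and 1 from the Little Rock Zoo. An animal without a note is not stated to have tested negative. Because no animal without a note came from SNPRC, virus note and primate centre cannot be told apart within 2018. The notes give no viral load, stage or date of infection, and no reads of either virus were analysed here. The paper states that some of its chimpanzees came from laboratories and had been challenged with HBV or HCV. It reports that its gene set results on species differences in variability held without those animals.

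Both viruses infect hepatocytes. A cell that senses a virus can secrete type I or type III interferon, which acts through receptors and JAK kinases to raise interferon-stimulated genes such as ISG15, MX2 and the IFIT and OAS families. T cells and natural killer (NK) cells secrete interferon-gamma, which raises genes such as CXCL9, CXCL10 and IRF1 and the major histocompatibility complex (MHC) genes that display peptides to T cells. In the heart these genes are carried by cardiomyocytes, endothelial cells, fibroblasts and resident or passing immune cells, and a bulk library sums over all of them.

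The library totals on annotated genes were between 43892814 and 132478050 counts. RNA integrity (RIN) was between 2.5 and 8.2 in the virus-positive animals and between 3.2 and 8.4 in the others. RIN, age, total count and the share of counts from the 13 mitochondrial genes were compared between the groups by exact two-sided permutation tests, which gave p = 0.54, 0.495, 0.509 and 0.276 and an adjusted p of 0.54 for each over these 4 tests. Cardiomyocyte markers summed to between 36936 and 80912 CPM (counts scaled to the size of the library) in the virus-positive hearts and to between 7873 (Little_R) and 107137 CPM in the others. Hepatocyte markers summed to between 42.9 and 118 CPM in the virus-positive hearts and to between 8.88 and 160 CPM in the others, most of it APOA1 (an apolipoprotein) in the virus-positive hearts, while ALB (serum albumin) had at most 23 reads in a virus-positive heart and 793 reads in 529. The library of Little_R stood furthest from the rest, with a median correlation of 0.726 with the other 19, followed by 537 at 0.784 and, among virus-positive hearts, 4X0354 at 0.828. The mitochondrial share was over 45% in 6 animals, the virus-positive 4X0339 and the others 495, 529, 537, 558 and Little_R, and the results below are also given without these 6, leaving 6 virus-positive animals and 8 others.

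No gene differed between the groups at an adjusted p under 0.05. edgeR's quasi-likelihood test with sex as a term called 0 of 15680 genes higher (0%) and 0 lower (0%), and the smallest Benjamini-Hochberg adjusted p was 1. At an unadjusted p under 0.05 there were 428 genes (2.73%), of which 163 were higher (1.04%) and 265 lower (1.69%) in the virus-positive hearts. DESeq2 gave 703 genes at an unadjusted p under 0.05 and limma-voom 221, and neither called a gene. There was also no gene whose 7 virus-positive values lay all above or all below the 13 others (0% in each direction). Each log2 fold change is given with its 95% interval, virus-positive over no virus note. In genes that vary much between animals the interval can be narrower than the test allows. Counts of intervals inside a bound can then be too high. For each gene alone, 83.4% of all intervals lay below a 2-fold rise, 74.1% above a 2-fold fall and 62.7% within 2-fold either way, 98% lay below a 4-fold rise and 95.1% above a 4-fold fall, and 45.7% of estimates were above 0. In bulk tissue, fewer cells of a type and less RNA per cell cannot be told apart in any of these values.

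The interferon genes themselves were near or at the detection limit. IFNB1 and IFNE (type I) and IFNL1 (type III) had 0 reads in all 7 virus-positive hearts, where 3 reads would correspond to between 0.0391 and 0.0671 CPM, and at most 7, 6 and 4 reads in any other heart. IFNG, which encodes interferon-gamma, had at most 5 reads in a virus-positive heart and 112 reads in 529, or 2.15 CPM. The receptor chains and kinases were readily measured, and their bounds were the narrowest of the immune lists. All 9 tested genes of this list had intervals within 2-fold either way, with a median log2 fold change of -0.19. Examples are IFNAR1, a chain of the type I interferon receptor, at -0.15 (95% interval -0.54 to 0.24), IFNGR1, a chain of the interferon-gamma receptor, at 0.00 (-0.47 to 0.47), and the kinase JAK1 at -0.07 (-0.49 to 0.36).

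Interferon-stimulated genes were centred near 0 as a list. Of 54 tested, 0 were called, 0 had an unadjusted p under 0.05 in either direction, and 26 estimates were above 0 and 28 below, with a median of -0.05 beside -0.03 over all genes tested. The summed level of the list was 813 CPM at the lowest, 1035 at the median and 2888 at the highest in the virus-positive hearts, and 843, 1207 and 2787 CPM in the others, so that the groups overlapped over nearly their whole range. The order of animals ran across the groups. The highest was 4X0354 with HCV (2888 CPM), then 558, 537 and Little_R without a note (2787, 2672 and 2144 CPM), then 4X0212 with HCV (1897 CPM), while the remaining 5 virus-positive hearts lay between 813 and 1134 CPM.

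Single genes of the list differed in their order of animals. ISG15, a ubiquitin-like protein and one of the most responsive genes of this class, was at 9.99 CPM in 4X0354, 8.28 in 4X0212, 2.28 in 4X0267, 1.76 in 4X0550, 1.16 in 4X0339, 1.08 in 4X0095 and 0.683 in 4X0333. In the others it was lowest in 529 (0.154 CPM) and highest in 558, below the value of 4X0212, with a median of 1.71, beside a median of 1.76 in the virus-positive hearts. Its log2 fold change was 0.60 (-0.64 to 1.84), a fold between 0.644 and 3.58, so a rise of 4-fold lay outside the interval and a rise of 2-fold inside it. MX2, which blocks retroviruses and herpesviruses, was at 83.6 CPM in 4X0212, 74.3 in 4X0354, 30.04 in 4X0267, 19.5 in 4X0095, 18.9 in 4X0550, 12.5 in 4X0339 and 9.97 in 4X0333. The others ran from 10.8 to 58.1 CPM with a median of 19.9, and the fold change was 0.58 (-0.25 to 1.40). IFI27 at 0.37 (-0.61 to 1.35), OAS1 at 0.42 (-0.54 to 1.39) and IFI44L at 0.27 (-0.68 to 1.22) likewise had 4X0354 and 4X0212 as the highest of the virus-positive hearts. IFIT1, which binds viral RNA ends, was different in that 4X0354 was not high, at 40.03 CPM beside 94.8 in 4X0212, 71.0 in 4X0267 and 58.2 in 4X0095, and its fold change was 0.26 (-0.51 to 1.04).

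Further members were bounded more or less tightly. ADAR, which edits double-stranded RNA, had a log2 fold change of -0.14 (-0.47 to 0.18). BST2, which tethers budding viruses to the cell surface, had the lowest estimate of the list at -0.83 (-1.92 to 0.26). Of the 54 genes, the intervals of 34 lay below a 2-fold rise and those of 34 above a 2-fold fall, and all 54 lay within 4-fold either way. The members IFITM1, IFITM2 and IFITM3 are related copies that can share reads, and their values are uncertain one from another. MX1 was not analysed here.

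**Figure D1:**
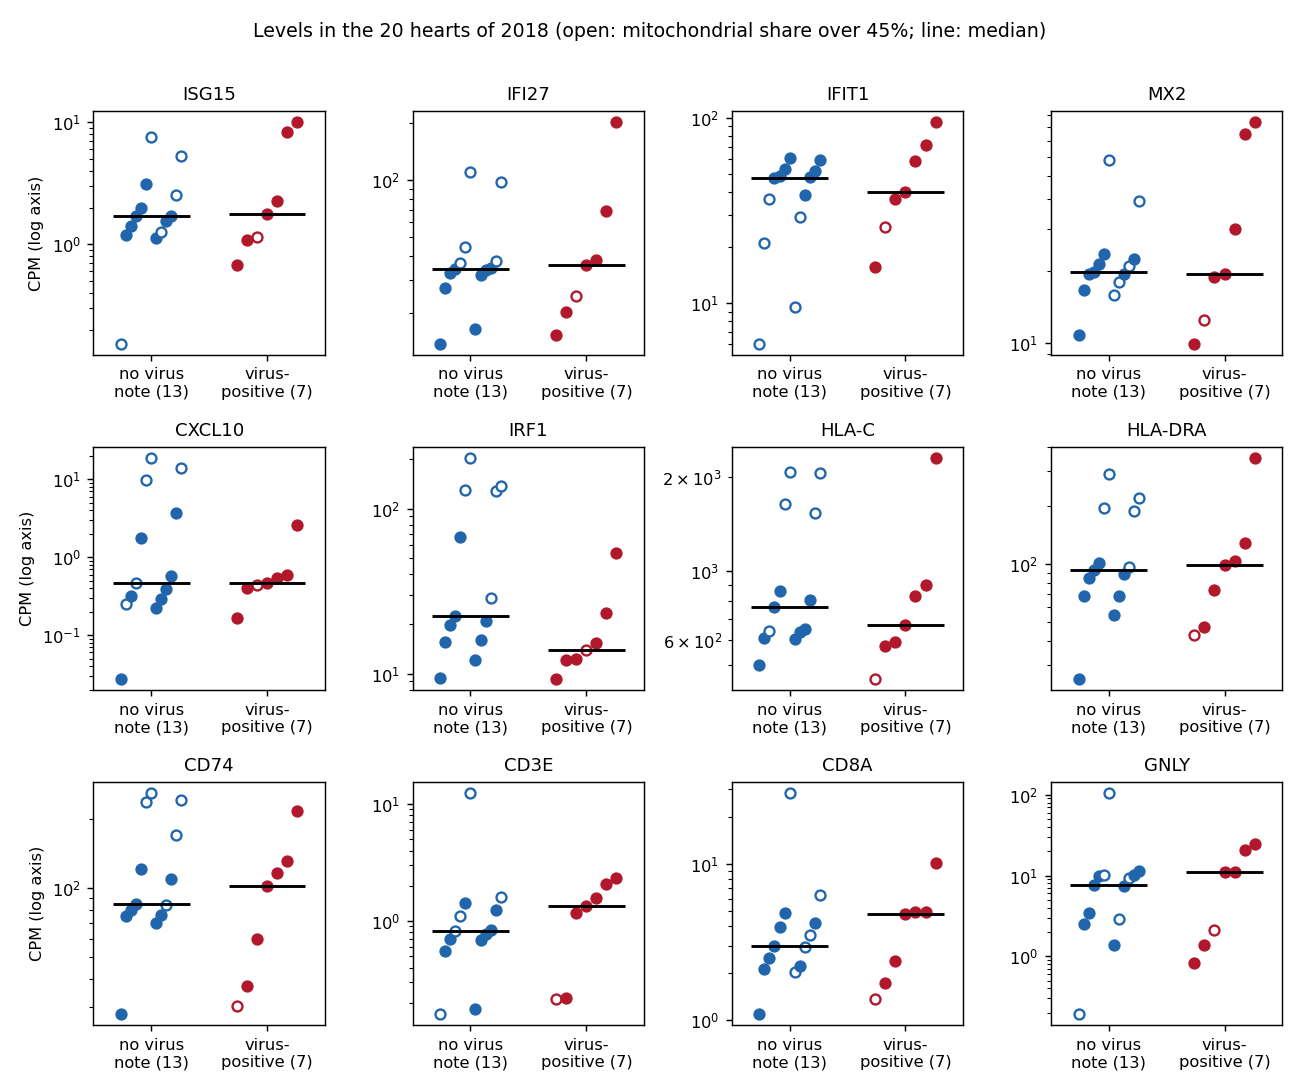
Level of 12 interferon, MHC, T cell and cytotoxic genes in each of the 20 hearts, in CPM on a log axis, with the 13 animals without a virus note in blue and the 7 virus-positive animals in red. Open circles mark a mitochondrial share over 45% and the black line is the group median. The red points overlap the blue ones in each panel, and ISG15 is highest at 9.99 CPM in 4X0354 while CD3E is highest at 12.5 CPM in 529.

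Genes that respond to interferon-gamma had estimates mostly below 0, and none was called. Of 19 tested, 18 estimates were below 0, the median was -0.78, and 4 had an unadjusted p under 0.05 in the lower direction beside 1.69% of all genes. With 1 animal left out, the number of genes at such a p ran from 2 (without 558) to 12 (without 4X0354). The 4 genes were ICAM1, an adhesion molecule that binds leukocytes (log2 fold change -2.33, unadjusted p = 0.00472), IRF1, a transcription factor (-1.70, p = 0.0171), CXCL10, a chemokine that attracts T cells (-2.50, p = 0.0356), and UBD, a ubiquitin-like protein (-1.996, p = 0.0416), each with an edgeR adjusted p of 1. CXCL10 was between 0.167 and 2.58 CPM in the virus-positive hearts with a median of 0.465 CPM, and the others had the same median of 0.465 CPM but reached 19.1 in 558, 13.98 in 529 and 9.91 in 537. IRF1 was between 9.30 and 53.5 CPM against 9.40 to 203 CPM, and its 4 highest values were in 537, 529, Little_R and 558. ICAM1 lay below the others' median in all 7 virus-positive hearts, at between 4.51 and 8.58 CPM, while the others ran from 5.27 CPM to 148 CPM in Little_R and 138 CPM in 529.

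CXCL9, a T cell chemokine induced chiefly by interferon-gamma, was at 16.02 CPM in 4X0354, 2.25 in 4X0333, 1.65 in 4X0267, 1.08 in 4X0095, 0.913 in 4X0550, 0.743 in 4X0212 and 0.241 in 4X0339. The others had a similar median (1.09 beside 1.08 CPM) and 4 values above those of every virus-positive heart but 4X0354, namely 15.1 in 558, 14.3 in 529, 5.85 in 537 and 5.09 in 554_2, and the fold change was -0.42 (-2.26 to 1.42). GBP1, a guanylate-binding protein that attacks intracellular pathogens, was at -0.77 (-2.05 to 0.51) with 49.7 CPM in 4X0354 and between 5.41 and 13.8 CPM in the remaining virus-positive hearts. The intervals of 16 of the 19 genes lay below a 2-fold rise and those of all 19 below a 4-fold rise. Only 1 of the 19 lay above a 2-fold fall and 6 above a 4-fold fall, so the bound on a fall was much weaker than the bound on a rise. The summed level was between 168 and 905 CPM in the virus-positive hearts with a median of 204 CPM, and between 171 and 1793 CPM in the others with a median of 301 CPM.

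Receptors and adaptors that sense viral nucleic acid, measured with 17 genes, had a median of -0.38, 4 estimates above 0 and 0 calls. Those with an unadjusted p under 0.05 were lower and were TICAM1 (-0.70, p = 0.0222), the adaptor of TLR3, TRAF3 (-0.48, p = 0.0249), which links several sensors to interferon production, and CGAS (-2.36, p = 0.0336), the sensor of cytosolic DNA, again with an edgeR adjusted p of 1 each. For CGAS the estimate rested on Little_R at 36.4 CPM. The virus-positive median of 0.571 CPM was above the others' median of 0.467 CPM, and 4 of the 7 virus-positive hearts lay above it.

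MHC class I genes and the machinery that loads them were bounded on both sides. The table gave 21 of the 31 listed symbols, under the names of the human orthologues, and HLA-B and B2M were not analysed here. Of 20 tested genes 0 were called, 1 had an unadjusted p under 0.05, 6 estimates were above 0 and the median was -0.22. The intervals of 18 lay below a 2-fold rise and of 11 above a 2-fold fall, and all 20 lay within 4-fold either way. HLA-C was at 2311 CPM in 4X0354, 902 in 4X0095, 831 in 4X0212, 674 in 4X0550, 591 in 4X0333, 574 in 4X0267 and 451 in 4X0339, against 501 to 2083 CPM and a median of 765 in the others, with a log2 fold change of -0.22 (-1.02 to 0.57). HLA-E, which presents signal peptides to NK cells, was the member with an unadjusted p under 0.05, at -0.72 (-1.37 to -0.07, p = 0.0371). It was between 31.3 and 82.9 CPM in the virus-positive hearts and between 43.7 and 206 CPM in the others.

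The peptide transporter TAP1 at -0.73 (-1.81 to 0.35), the immunoproteasome subunit PSMB9 at -0.22 (-1.30 to 0.85) and NLRC5, the activator of class I transcription, at -0.62 (-1.74 to 0.51) shared 1 pattern. In each, 4X0354 was over 3 times the next virus-positive heart (81.7 beside 26.7 CPM for TAP1, 33.1 beside 9.21 for PSMB9, 60.3 beside 11.6 for NLRC5) while 537 had 168, 38.8 and 62.2 CPM of these genes and 558 had 110, 26.7 and 53.1 CPM without a note. MHC genes are polymorphic and have close paralogues, so reads counted to one of them depend on an animal's alleles. HLA-F, picked out after its values were seen, was at 0.717 CPM in 4X0212 and between 14.99 and 135 CPM in all 19 other hearts.

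MHC class II genes, which display peptides to CD4 T cells, had 19 tested members, 0 calls, 0 genes with an unadjusted p under 0.05, 3 estimates above 0 and a median of -0.14. HLA-DRA was at 353.7 CPM in 4X0354, 129 in 4X0212, 104 in 4X0095, 98.4 in 4X0267, 73.3 in 4X0550, 47.3 in 4X0333 and 43.1 in 4X0339, with others from 25.5 to 290 CPM and a median of 92.7. Its log2 fold change was -0.04 (-0.95 to 0.87), which put it within 2-fold either way. CD74, the invariant chain that escorts class II molecules, was at -0.37 (-1.26 to 0.51). CIITA, the master activator of class II genes, was at -1.53 (-3.01 to -0.06, edgeR unadjusted p = 0.0564), with 58.9 CPM in 537 and 30.8 in 558 against at most 10.8 CPM in a virus-positive heart. The intervals of 14 of the 19 lay below a 2-fold rise, of 7 above a 2-fold fall and of 17 above a 4-fold fall, and all 19 lay below a 4-fold rise.

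**Figure D2:**
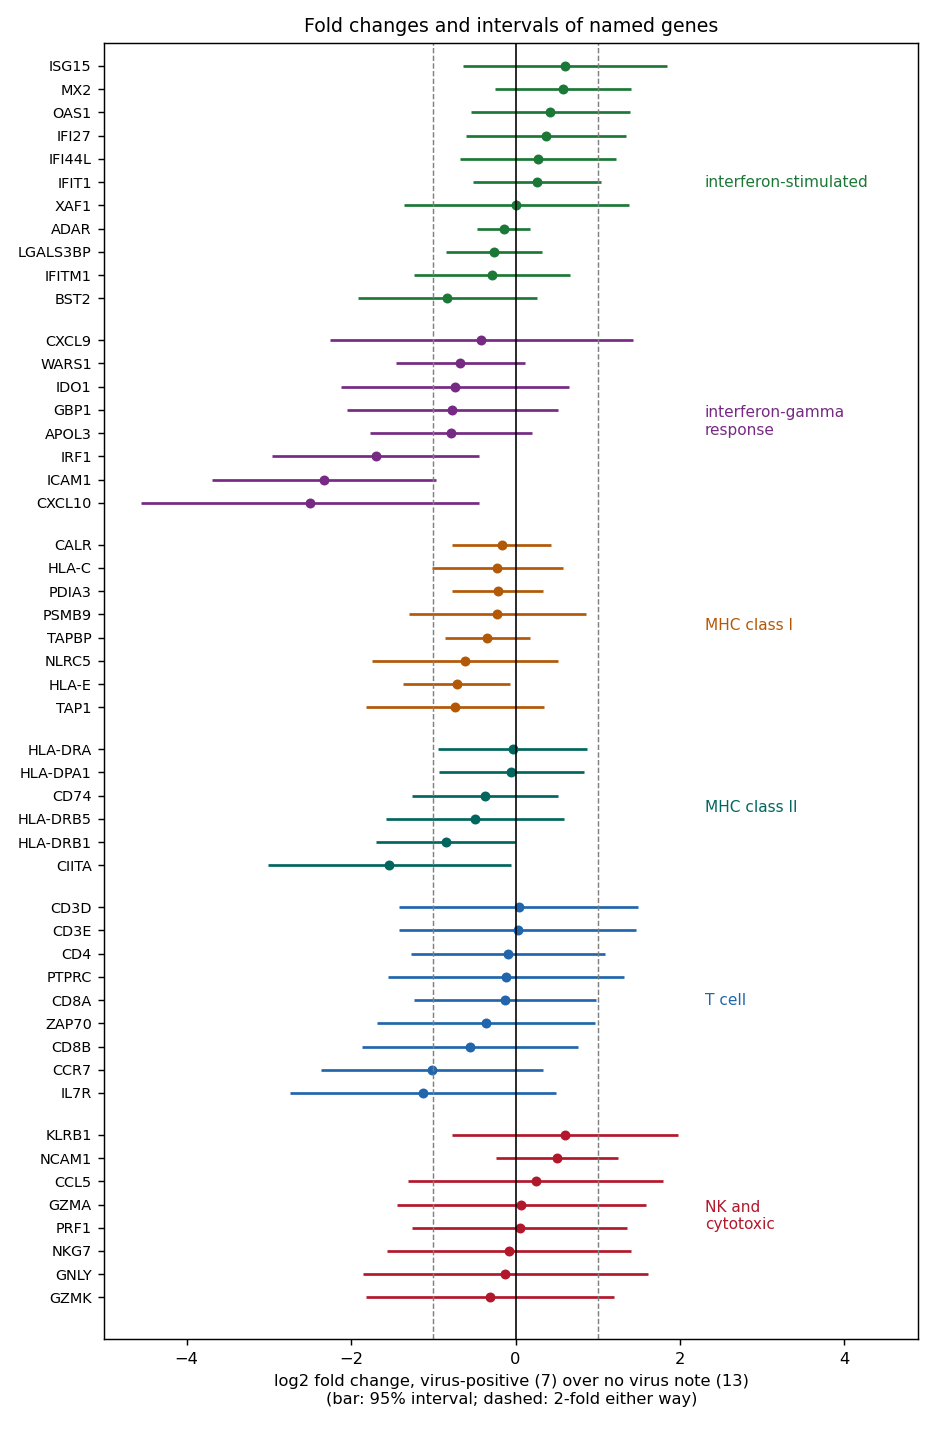
Log2 fold change (point) and 95% interval (bar) of named genes, virus-positive (7) over no virus note (13), grouped by list, with dashed lines at 2-fold either way. The interval of ADAR runs from -0.47 to 0.18 and that of CD3E from -1.42 to 1.47. The median width over all tested members was 1.79 for interferon-stimulated, 1.48 for MHC class I, 2.88 for T cell and 2.83 for NK and cytotoxic genes, beside 1.24 over all genes tested.

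No T cell gene was called, and the bounds were wide. Of 27 tested, 0 were called and 0 had an unadjusted p under 0.05. There were 4 estimates above 0, and the median was -0.23. CD3E, a chain of the T cell receptor complex, was at 2.34 CPM in 4X0095, 2.08 in 4X0354, 1.56 in 4X0267, 1.33 in 4X0333, 1.18 in 4X0212, 0.219 in 4X0550 and 0.217 in 4X0339. Among the others it was at 12.5 CPM in 529 and between 0.159 and 1.597 CPM in the rest, and the fold change was 0.03 (-1.42 to 1.47), a fold between 0.375 and 2.77. Its median was 1.33 CPM in the virus-positive hearts and 0.818 CPM in the others, and 5 of 7 virus-positive hearts lay above the others' median. CD8A, the co-receptor of cytotoxic T cells, was between 1.38 and 10.1 CPM against 1.09 to 28.5 CPM, at -0.12 (-1.23 to 0.98), and CD8B was at -0.56 (-1.87 to 0.76). CD4 was at -0.09 (-1.27 to 1.09). All 27 intervals lay below a 4-fold rise and 18 above a 4-fold fall, but 11 lay below a 2-fold rise and 0 above a 2-fold fall. The summed level was between 11.9 and 58.4 CPM in the virus-positive hearts, with a median of 35.6 CPM, and between 8.89 and 365 CPM in the others, with a median of 28.5 CPM, the highest being 529.

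Checkpoint and activation genes of T cells, low in all hearts, had 12 tested members with 0 calls, 6 estimates above 0 and a median of -0.16. PDCD1, the inhibitory receptor PD-1 that marks T cells in chronic viral infection, was between 0.294 and 1.38 CPM against 0.206 to 7.14 CPM, at -0.46 (-1.52 to 0.60). Of 21 NK and cytotoxic genes, 12 estimates were above 0, 0 were called and the median was 0.07. GNLY, a lytic granule protein, was between 0.820 and 24.8 CPM against 0.191 to 105 CPM, at -0.12 (-1.85 to 1.61), and NKG7, a membrane protein of the same granules, was at -0.08 (-1.56 to 1.40). Their intervals lay below a 2-fold rise in 1 of 21 genes, below a 4-fold rise in 20 and above a 4-fold fall in 21. NCAM1, which cardiomyocytes also express, made up most of the summed level of that list, at between 77.7 and 237 CPM in the virus-positive hearts.

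Other immune cells gave no call either. Macrophage and monocyte genes had a median of 0.12 with 19 of 24 estimates above 0, and FCN1, a monocyte lectin, had an unadjusted p of 0.012 at 1.80 (0.44 to 3.15). B and plasma cell genes had 11 tested members, 6 estimates above 0 and a median of 0.33. JCHAIN, which joins secreted antibodies, was at 265 CPM in 4X0333, the animal with both viruses, and at most 39.8 CPM in the remaining virus-positive hearts, and at 388 CPM in 529 without a note. Neutrophil genes had a median of -0.55 with 3 of 9 estimates above 0.

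Early cytokine and immediate early genes had the lowest medians of any list, and again none was called. All 17 tested cytokine and NF-kB response genes were estimated lower in the virus-positive hearts with a median of -1.61, and 10 had an unadjusted p under 0.05 beside 1.69% of all genes. Without 529 these were 2 genes and the median was -0.85. All 12 immediate early genes were estimated lower, with a median of -1.60 and 6 such genes, and without Little_R these were 0 genes with a median of -1.01. IL6, a cytokine of the acute phase, was between 0.0337 and 1.67 CPM in the virus-positive hearts and reached 41.8 CPM in 529 and 27.97 in Little_R, at -3.91 (-6.38 to -1.43, edgeR unadjusted p = 0.0122). CCL2, which attracts monocytes, had nearly the same median in both groups (6.66 and 6.98 CPM), but 529 held 419 CPM and Little_R 216 CPM, at -2.92 (-4.82 to -1.01, p = 0.0124). IL6, CCL2, HLA-F, JCHAIN and FCN1 were singled out after their values were seen. Fibroblast markers had a median of -0.68, and cardiomyocyte markers one of 0.32 with 11 of 12 estimates above 0.

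The medians of several immune lists changed sign without the 6 animals of high mitochondrial share, while those of NK and cytotoxic (0.07 to 0.83), B and plasma cell (0.33 to 0.94) and macrophage genes (0.12 to 0.52) stayed above 0. Without them 0 genes were called, and 771 genes were higher (4.98%) and 458 lower (2.96%) at an unadjusted p under 0.05. The median of interferon-stimulated genes was then 0.72, with 52 of 54 estimates above 0 and 23 at an unadjusted p under 0.05, and the medians were 0.22 for interferon-gamma response genes, 0.36 for MHC class I, 0.71 for MHC class II, 0.69 for T cell genes and 0.41 for early cytokine genes. ISG15 was at 1.23 (unadjusted p = 0.0298), MX2 at 1.06 (0.0189) and HLA-DRA at 0.84 (0.0437), all by edgeR with none called. The bounds on a rise were weaker without these animals. Intervals below a 2-fold rise went from 34 to 16 of 54 interferon-stimulated and from 18 to 9 of 20 MHC class I genes. They went from 14 to 4 of 19 MHC class II and from 11 to 2 of 27 T cell genes. Intervals above a 2-fold fall became more frequent, at 53, 19, 19 and 23 genes of these lists. The setting keeps 4X0354, whose mitochondrial share was 42.99%. A limit of 40%, added after the data were seen, also leaves out 4X0354 and keeps 5 virus-positive animals and the same 8 others. The interferon-stimulated median was then 0.20 with 41 of 54 above 0 and 3 at an unadjusted p under 0.05 (beside 2.99% of all genes higher and 1.85% lower), and the medians were -0.33 for interferon-gamma response genes, -0.14 for MHC class I, 0.11 for MHC class II and 0.31 for T cell genes. Intervals below a 2-fold rise were then 38 of 54 interferon-stimulated and 20 of 20 MHC class I genes. They were 10 of 19 MHC class II and 3 of 27 T cell genes.

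Single animals moved the lists as well. Leaving out 4X0354 gave the lowest medians for interferon-stimulated genes (-0.40), interferon-gamma response genes (-1.47), MHC class I (-0.60) and MHC class II (-0.65). Leaving out 537 gave the highest for the first 3 of these lists (0.15, -0.52 and -0.10), and leaving out 529 gave the highest for T cell (0.37) and NK genes (0.68). The number of interferon-stimulated genes with an interval below a 2-fold rise ran from 27 to 47 over the 20 animals left out in turn, and that of T cell genes from 4 to 15.

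**Figure D3:**
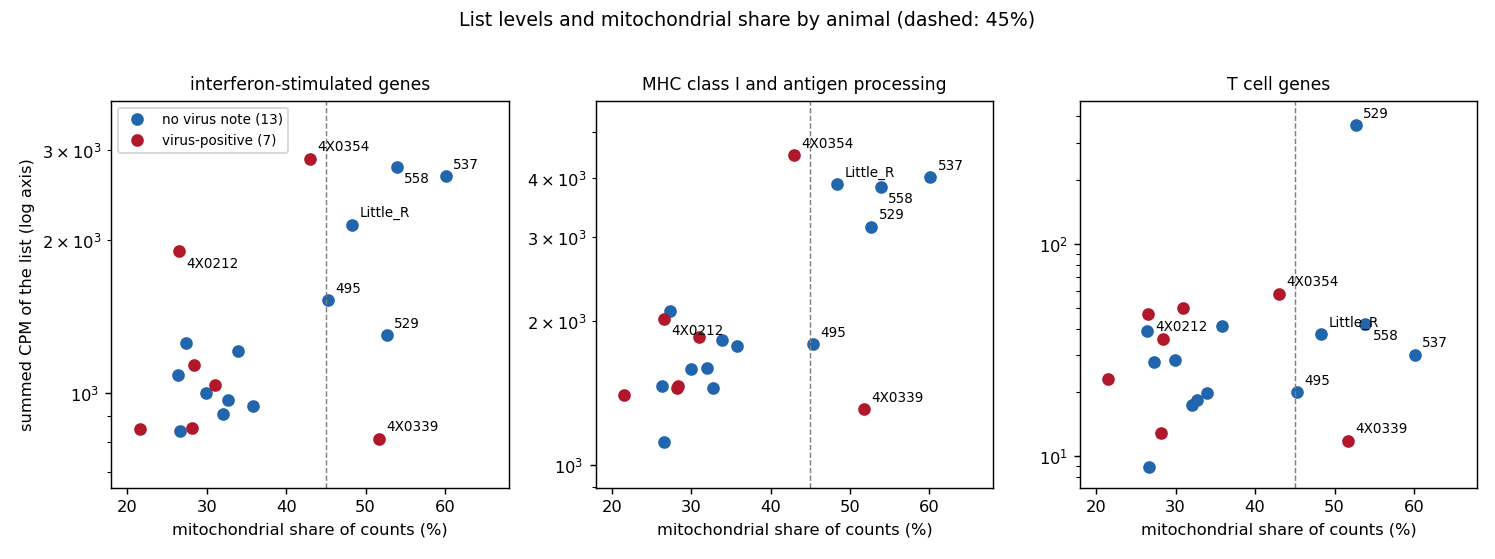
Summed level of 3 gene lists in CPM (log axis) against the share of counts from mitochondrial genes in percent, for the 13 animals without a virus note (blue) and the 7 virus-positive animals (red), with a dashed line at 45%. The 5 blue animals to the right of the line include the highest blue values of each list (2787, 4010 and 365 CPM), and the red animal 4X0354 at 42.99% has 2888, 4461 and 58.4 CPM.

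The mitochondrial share, the high immune levels and the low cardiomyocyte levels fell in partly the same animals. Of the 5 others left out, 537, 558 and Little_R had the highest summed levels of interferon-stimulated genes in their group, and 529 the highest of T cell genes. 4X0339, the virus-positive animal left out, had the lowest summed level of interferon-stimulated, MHC class I and T cell genes among the 7. RIN was 7.2 in 537, 8.4 in 558 and 7.8 in Little_R, and 2.5 in 4X0339. The part of tissue state in the differences was not tested.

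The 2 viruses were set against the same 13 controls, so the 2 fits are not independent, and 4X0333 entered both. The 5 animals with HCV had a median of 0.13 over the interferon-stimulated genes with 36 of 54 estimates above 0, and the 3 with HBV had a median of -0.79 with 0 of 54 above 0. For MHC class II the medians were -0.11 and -0.88, for NK and cytotoxic genes 0.20 and -0.56, and for T cell genes -0.17 and -0.11. ISG15 was at 0.96 with HCV and -1.29 with HBV. The difference between the viruses was not tested, 0 genes were called in either fit, and the pair of animals that lifted the HCV values was 4X0354 and 4X0212, while 4X0550, also with HCV, was at 1.76 CPM of ISG15 and 4X0267 at 2.28 CPM. On the HBV side, 4X0339 had a RIN of 2.5 and a mitochondrial share of 51.7%. Its interferon-stimulated sum, 813 CPM, was the lowest of the 20 hearts.

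**Figure D4:**
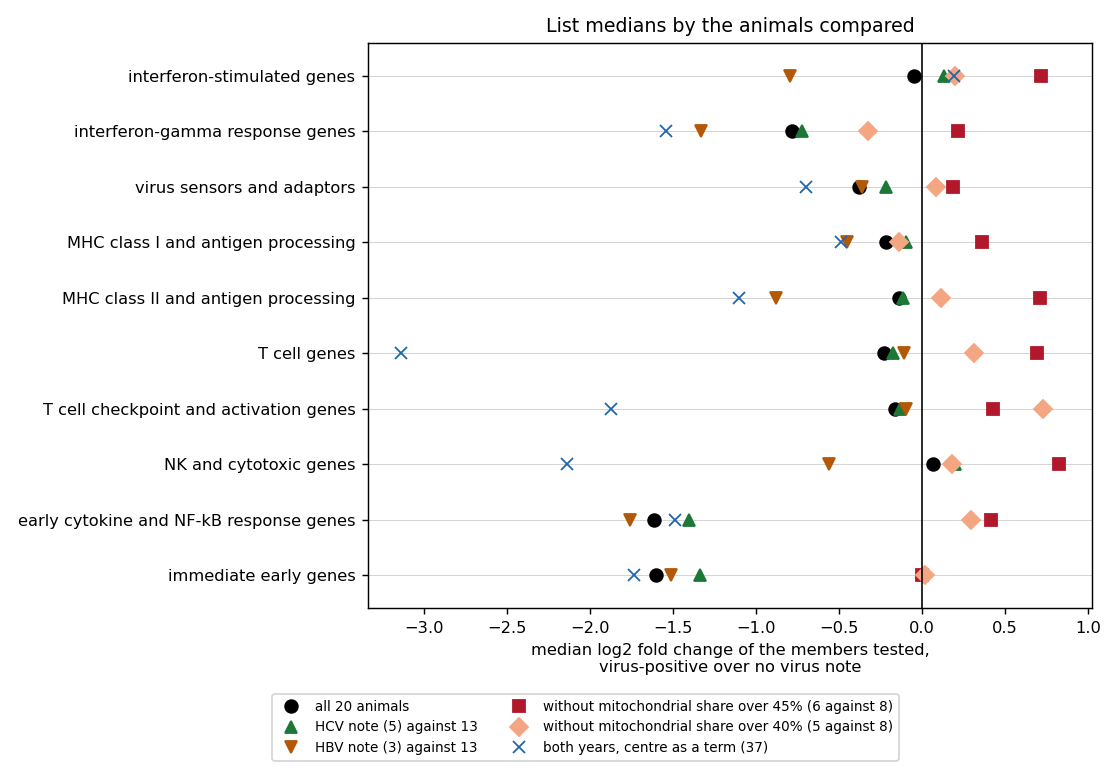
Median log2 fold change over the tested members of 10 gene lists, virus-positive over no virus note, under 6 choices of animals or terms marked by symbols. The median of interferon-stimulated genes is -0.05 with all 20 animals, 0.72 without the animals of high mitochondrial share and -0.79 for the 3 animals with HBV, and that of T cell genes is -3.14 when primate centre is a term.

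Primate centre could be separated from virus note only by adding the 17 hearts of the earlier year. Of these, 5 came from SNPRC and none carries a virus note. The centre term is then set by these 5 hearts against the 12 other earlier hearts. The virus term holds only if the centre difference was the same in both extraction years, which was not tested. In a fit of 37 animals with extraction year, sex and SNPRC as terms, the virus term called 0 of 16261 genes (0%), and 553 were higher (3.4%) and 1118 lower (6.88%) at an unadjusted p under 0.05, with a smallest adjusted p of 0.199. The T cell median was -3.14, and 26 of 28 tested T cell genes had an unadjusted p under 0.05 in the lower direction. CD3E was at -3.34 (-5.34 to -1.35, edgeR unadjusted p = 0.00225) and CD8A at -2.46 (-3.97 to -0.95). The SNPRC term of the same model called 155 of 15645 genes higher (0.991%) and 6 lower (0.0384%), with 15 of 27 T cell genes tested there among the higher. On a scaling over all 38 animals, summed T cell levels were between 39.1 and 365 CPM in the 5 earlier SNPRC hearts. The highest were 365 CPM in 4x0043 and 174 CPM in 4x523. The sums were 13.2 to 63.4 CPM in the 7 virus-positive hearts and 12.7 to 52.9 CPM in the 12 other earlier hearts. The SNPRC animal 4X0357, exposed to HIV and outside the fit, had 8.51 CPM, below all 7 virus-positive hearts. It is 1 heart, and its difference from them was not tested. Interferon-stimulated genes moved the other way from T cell genes in the fit, to a median of 0.19, and ISG15 to 2.13 (-0.01 to 4.27). Only 17 of 54 interferon-stimulated genes then had an interval below a 2-fold rise. For MHC class I, MHC class II and T cell genes these were 16 of 20, 17 of 19 and 28 of 28. Whether extraction year is the same split as new against earlier libraries is not settled, because the paper gives differing counts of new libraries.

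Host genes that the 2 viruses use gave no call, with 14 of 18 listed genes tested, 0 called and a median of -0.26. SLC10A1, the HBV entry receptor NTCP and a liver gene, had at most 17 reads in a virus-positive heart (4X0333) and at most 72 reads in any other heart. CD81, a co-receptor of HCV and a common membrane protein, was between 131 and 283 CPM in the virus-positive hearts and between 187 and 389 CPM in the others, at -0.37 (-0.72 to -0.02, edgeR unadjusted p = 0.041). Claudin-1 (CLDN1), another HCV co-receptor, was at -0.50 (-2.49 to 1.495) and at most 7.06 CPM in any heart.

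Over all genes with a symbol, those with the smallest p all had an edgeR adjusted p of 1. The 10 highest by this rule were CALB1, VWA3B, SHCBP1, GRIA1, BDNF, NEB, PRSS50, SURF2, GARNL3 and ELOVL6. CALB1, a calcium-binding protein, was at 8.71 CPM in 4X0212 and between 0.421 and 0.772 CPM in the remaining virus-positive hearts against 0.147 to 0.492 CPM in the others, at 2.36 (1.295 to 3.42, p = 0.000168), with 7 of 7 above the others' median. BDNF, a neurotrophin, was at 3.57 CPM in 4X0354 and at 1.69 (0.65 to 2.73). SURF2 at 0.73 (0.26 to 1.21) and GARNL3 at 0.76 (0.26 to 1.26) were more even, also with 7 of 7 animals above the others' median. The 10 lowest were LZTS1, PLA2G2A, OSBPL10, SELE, SOX18, ICAM1, CPNE5, EIF5A2, NGFR and RPP25. PLA2G2A, a secreted phospholipase of inflammation, was between 1.42 and 32.7 CPM in the virus-positive hearts with a median of 5.22, and between 0.915 and 833 CPM in the others with a median of 42.2, at -4.40 (-6.56 to -2.25, p = 0.00355). SELE, the adhesion molecule E-selectin of activated endothelium, was between 0.157 and 1.05 CPM against 0.471 to 12.9 CPM, at -2.24 (-3.56 to -0.91), and SOX18, a transcription factor of endothelium, was at -0.81 (-1.32 to -0.30). In PLA2G2A, SELE and ICAM1 all 7 virus-positive hearts lay below the others' median.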

How the data were processed

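Heart RNA of 20 chimpanzees was compared, 7 virus-positive and 13 without a virus note, all of the 2018 extraction. Values are the raw count per gene that the authors deposited. The authors aligned single-end reads to Pan_tro 3.0 with STAR 2.6.1b and took its count per annotated gene, and whether strand was used is not given in the sources used here, so overlapping and antisense genes cannot be told apart. Their counts on orthologous exons, made with featureCounts 1.6.3, served as an alternative. The 52 per-sample columns with no match among the labels and the human and normalized tables were not used here. Symbols were found for 18040 of 31373 genes. No sequences are shown.

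Counts were tested with edgeR 4.0.16 (TMM, filterByExpr, robust quasi-likelihood, sex as a term, R 4.3.3), with Benjamini-Hochberg adjustment over all 15680 genes tested and a threshold of 0.05. A 95% interval is the coefficient plus or minus the t quantile times its standard error, and is not adjusted for the number of genes. It can leave out 0 where the test's p is over 0.05. It can be too narrow in genes that vary much between animals. Levels are CPM on TMM-scaled totals, log2 levels used a pseudocount of 0.5, and limits of detection (3 counts) cover counting error only. The edgeR fit with sex as a term was tested on simulated counts, and the other steps were not. limma 3.58.1 and DESeq2 1.42.0 were alternatives, beside other scalings, filters, terms and sets of animals. The limit of 40% on the mitochondrial share was added after the data were seen. Age was missing for 4 animals, which the age fit drops.

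The members, the 15 gene lists and the 11 marker lists were chosen with earlier results of these data known, so no list was tested as a set. Genes named are the 10 with a symbol and the smallest p in each direction, the 4 highest and the 2 smallest p of each interferon, MHC, T cell and NK list, fixed members such as ISG15 and CD3E, and further members given as examples; some fixed members are not reported here. Python 3.11.15, pandas 2.3.3, numpy 2.4.6 and matplotlib 3.10.9 were also used.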

Additional observations from a re-analysis of the deposited data

Results flagged for a closer look

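In the 7 virus-positive animals, 108 levels (named genes and summed lists, on the log2 CPM scale) were searched for an animal apart from the rest by Dixon's ratio of its gap to the whole range. Chance flags about 1 in 20 such groups where they are not picked by their values, and 17 were flagged. Some named genes were picked by a small p in these same data, among them CALB1, VWA3B, SHCBP1, ELOVL6 and RPP25. The chance rate need not hold for them. Genes share animals, so the flags are not independent.

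The animal 4X0354, with HCV, stood above the other 6 in 11 of them. The ratio was 0.754 for NLRC5, 0.678 for CXCL10, 0.673 for APOL3, 0.587 for GBP1, 0.581 for TAP1, 0.577 for CXCL9, 0.576 for HLA-C and 0.572 for PSMB9. It was 0.626 for the summed interferon-gamma response genes and 0.645 for the summed MHC class I genes. It was 0.800 for SHCBP1, a gene of dividing cells, at 5.27 CPM beside at most 0.347 CPM in the other virus-positive hearts. The same library had 7307 CPM of NPPA, the atrial natriuretic peptide, beside 1930 CPM in 4X0550 and at most 160 CPM in the remaining 5, and the lowest summed cardiomyocyte markers of the 7 (36936 CPM).

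The animal 4X0212 stood highest in CALB1 with a ratio of 0.860 and in the summed neutrophil genes with 0.670 (158 CPM, with a median of 19.3 CPM over the 7). The ratio was 0.759 for VWA3B, where 4X0339 was highest, and 0.726 for JAK1, where 4X0339 was lowest. It was 0.576 for ELOVL6, where 4X0267 was highest, and 0.596 for RPP25, where 4X0333 was highest.

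In data outside the comparison, the hepatocyte markers summed to 328 CPM in 4X0357, the animal noted as exposed to HIV, above the highest value of the 13 animals without a note, 165 CPM on the same scale.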

How the results depend on the processing

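Over 40 alternatives no gene was called at 0.05, and at 0.10 DESeq2 alone called any (2 genes, PLA2G2A and MT-ND6, smallest adjusted p 0.0534, with 147 adjusted p not given). The count at an unadjusted p under 0.05 was 428 in the reported fit. It was 703 with DESeq2, 221 with limma-voom, 1117 of 26401 with any count kept, 245 with RIN and 232 with age as a term, 187 for HBV only, 243 without 537 and Little_R, 1229 and 757 without mitochondrial shares over 45% and over 40%, 1671 with centre as a term, and between 274 (without Little_R) and 627 (without 476) with 1 animal left out. Counts on orthologous exons gave 479 of 17402.

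List medians (log2) that moved by more than the spread between animals were as follows. Without mitochondrial shares over 45% they were 0.72 for interferon-stimulated, 0.22 for interferon-gamma response, 0.11 for receptor, 0.18 for sensor, 0.36 for MHC class I, 0.71 for MHC class II, 0.69 for T cell, 0.43 for checkpoint, 0.41 for neutrophil, 0.41 for cytokine, 0.42 for entry factor and -0.0032 for immediate early genes, 0.82 for fibroblast and 0.25 for endothelial markers. Without shares over 40% they were 0.019 for receptor, 0.081 for sensor, 0.73 for checkpoint, 0.29 for cytokine, 0.29 for entry factor and 0.015 for immediate early genes and 0.93 for fibroblast markers. With centre as a term they were -1.10 for MHC class II, -3.14 for T cell, -1.88 for checkpoint, -2.14 for NK, -3.95 for B cell and -0.69 for macrophage genes, 0.69 for atrial and -2.67 for erythrocyte markers. For HBV only they were -0.79 for interferon-stimulated and -0.88 for MHC class II genes. With age as a term they were -0.52 for cytokine and 0.29 for entry factor genes and 0.083 for mesothelial markers, with component 1 as a term -0.55 and 0.15 for cytokine and entry factor genes, for females only 0.17 for entry factor genes, and with limma-voom 0.14 for mesothelial markers. With the 6 CPM filter they were -1.09 for checkpoint genes and 3.60 for adipocyte markers, with any count kept 3.66 for adipocyte and -1.90 for hepatocyte markers, without mitochondrial genes 2.13 for adipocyte markers, and with total counts -0.034 for receptor genes. Total counts moved the median of all genes from -0.03 to 0.08. With 1 animal left out, checkpoint medians ran from -0.32 to 0.22 (without 554_2) and B cell medians from -0.63 (without 4X0333) to 0.68. The causes were not tested.

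Of 3182 values of named genes under the alternatives, 300 had the other sign than in the reported fit, none of them called. Of 82 genes these were 37 without shares over 45%, 23 without shares over 40%, 18 for HBV only, 14 with age, 13 with centre and 12 with total counts. With 7 animals against 13, changes under 2-fold could not be bounded for most T cell and NK genes, whose levels were low. No paired analysis was possible because the labels give no replicate numbers and each animal is its own.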

Other observations

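The 4 virus-positive animals with the lowest interferon-stimulated sums, 4X0339, 4X0333, 4X0550 and 4X0095, carried HBV, both viruses, HCV and HBV, with 813, 849, 854 and 1035 CPM. Among all 20 hearts the 2 with the most NPPA, 4X0354 and 4X0550, both carried an HCV note, and the fitted NPPA difference was 4.93 (95% interval 1.99 to 7.87) at an edgeR unadjusted p of 0.0777 and an adjusted p of 1. Adipocyte markers summed to between 616 and 1401 CPM in the virus-positive hearts and between 297 and 1206 CPM in the others, with all 5 tested members estimated above 0. Their median log2 fold change was 0.65. With 1 animal left out, that median ran from 0.09 (without 4X0267) to 0.87 (without 476). Erythrocyte markers were highest in 529 at 4487 CPM, the heart that also had the highest T cell, NK and B cell sums.

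MT-ND6, a mitochondrial subunit of respiratory complex I, fell into 2 separate levels and was singled out after its values were seen. It was between 763 and 2375 CPM in 7 hearts, the virus-positive 4X0267, 4X0354 and 4X0550 and the others 295, 389, 495 and 529, and between 1.54 and 7.45 CPM in the remaining 13. It had the highest fitted log2 fold change of all genes tested, 5.31 (95% interval 2.63 to 7.997), with an edgeR unadjusted p of 0.0114 and an adjusted p of 1, although both levels occurred in both groups. Of the high hearts only 4X0267 was female, and no female without a virus note was at the high level. Sex was a term of the fit, so the estimate is not a plain ratio of the group levels. Whether the 2 levels come from the libraries or from the hearts was not tested.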
